A study of Mus musculus with 8 samples.

Results

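Expression of 10 circadian clock genes was examined in the liver of control mice and Mc1r LKO mice on a Western diet, matched by symbol among the 55487 genes of the count tables: Per1, Per2, Per3, Arntl, Npas2, Cry1, Dbp, Ciart, Nfil3 and Tef. The series consists of liver RNA-Seq from 4 control and 4 Mc1r LKO male mice, each mouse giving 1 library. Mc1r LKO mice lack the melanocortin 1 receptor in hepatocytes, because they carry the floxed Mc1r allele (Mc1r fl/fl) together with Cre recombinase under the albumin promoter (Alb-Cre). Controls were Mc1r fl/fl mice of matched age, so both groups carry the floxed allele and differ by Cre. All mice entered the diet at 8 weeks of age, ate the Western diet for 12 weeks, lived under a fixed light and dark cycle and were killed with CO2 after a 4-hour fast. The clock time at which each mouse was killed is not given in the sources used here. The clock genes therefore served to order the mice, and Per1 was then set against the other clock genes mouse by mouse.

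The circadian clock of the liver is a transcriptional feedback loop. ARNTL (BMAL1) pairs with CLOCK or with its close relative NPAS2, and the pair binds E-boxes and activates Per, Cry, Dbp, Tef and Ciart, whose PER, CRY and CIART proteins in turn repress the pair. A second arm acts through the ROR activators and the NR1D1 and NR1D2 repressors, which compete for one element and drive Arntl, Npas2, Cry1 and Nfil3 at the opposite phase of the day. DBP and TEF activate through the D-box and NFIL3 represses through it. Per1 and Per2 are also known to respond to systemic cues such as glucocorticoids, cAMP signalling, feeding and body temperature, in addition to the local loop.

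Promoters of 300 bases, from 250 before to 50 after the annotated start site, were taken from RefSeq (GRCm38.p6). They matched 9 of the 10 genes with 12 promoters, all but Per2. The 5 below are shown because they carry the elements of both arms of the loop, and because they belong to genes that behaved differently from mouse to mouse. Capitals mark the E-box CACGTG in Per1 and Ciart, the D-box TTATGTAA in Per3 and the core of the ROR and NR1D element TAGGTCA in Arntl and Nfil3, where Nfil3 has it on the opposite strand as TGACCTA. Each sequence is written 5′ to 3′ on the strand of the gene.
Per1 (chr11:69098699-69098998, plus strand): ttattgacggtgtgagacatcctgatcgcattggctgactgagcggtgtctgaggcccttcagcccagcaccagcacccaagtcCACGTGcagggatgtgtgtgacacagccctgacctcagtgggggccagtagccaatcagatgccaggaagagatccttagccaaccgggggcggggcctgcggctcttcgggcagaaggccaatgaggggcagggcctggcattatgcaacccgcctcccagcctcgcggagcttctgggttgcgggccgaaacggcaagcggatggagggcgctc
Ciart (chr3:95882179-95882478, minus strand): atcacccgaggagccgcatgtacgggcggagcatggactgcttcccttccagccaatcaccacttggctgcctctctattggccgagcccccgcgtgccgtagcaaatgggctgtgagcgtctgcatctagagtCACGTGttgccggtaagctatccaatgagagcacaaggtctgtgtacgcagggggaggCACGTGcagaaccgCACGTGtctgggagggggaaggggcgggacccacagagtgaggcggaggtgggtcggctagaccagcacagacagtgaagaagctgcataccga
Per3 (chr4:151044616-151044915, minus strand): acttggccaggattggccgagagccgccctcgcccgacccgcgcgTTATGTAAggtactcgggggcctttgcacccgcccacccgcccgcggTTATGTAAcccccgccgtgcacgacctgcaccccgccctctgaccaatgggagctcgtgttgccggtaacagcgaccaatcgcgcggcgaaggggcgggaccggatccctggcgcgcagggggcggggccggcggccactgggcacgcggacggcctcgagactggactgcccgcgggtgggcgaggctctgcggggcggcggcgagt
Arntl (chr7:113207261-113207560, plus strand): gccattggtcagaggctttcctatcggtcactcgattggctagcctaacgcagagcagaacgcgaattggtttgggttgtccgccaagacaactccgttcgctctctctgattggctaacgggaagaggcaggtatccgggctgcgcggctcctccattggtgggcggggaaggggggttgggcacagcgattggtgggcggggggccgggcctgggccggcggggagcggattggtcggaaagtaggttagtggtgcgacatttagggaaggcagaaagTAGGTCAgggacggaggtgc
Nfil3 (chr13:52980990-52981289, minus strand): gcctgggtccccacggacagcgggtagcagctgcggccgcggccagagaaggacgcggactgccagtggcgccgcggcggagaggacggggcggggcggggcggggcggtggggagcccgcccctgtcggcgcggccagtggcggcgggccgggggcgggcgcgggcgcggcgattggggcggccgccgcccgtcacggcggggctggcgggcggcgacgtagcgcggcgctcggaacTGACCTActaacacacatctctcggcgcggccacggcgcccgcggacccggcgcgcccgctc

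In Ciart the E-boxes began 116, 58 and 44 bases before the start site, and in Per1 the E-box began 166 bases before it. The D-boxes of Per3 began 205 and 158 bases before its start site. The TAGGTCA core began 12 bases before the start site in Nfil3 and lay in the transcribed part of the window in Arntl. The motifs searched on both strands were the E-box CACGTG, its variant CACGTT, the D-boxes TTATGTAA and TTACGTAA, TAGGTCA, the cAMP response element TGACGTCA, its shorter core TGACG, which is contained in it, and the glucocorticoid receptor motif TGTTCT. The E-box was present in 5 of the 12 promoters (Per1, Ciart, Cry1 and both of Tef), against 7.15% of all 32851 promoters. The D-box was present in 1 of 12 against 1.06%, TAGGTCA in 2 of 12 against 2.61%, and the variant E-box in 1 of 12, that of Cry1, against 4.68%. TGACGTCA was in none of the 12 promoters and in 1.79% of all, TGACG in 4 against 20.8%, and TGTTCT in 1, that of Tef, against 19.0%. These matches describe the letters in the windows and were not tested for binding.

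The libraries held between 10773151 and 24763375 counted read pairs, and 3 counts corresponded to between 0.121 and 0.278 CPM in a mouse, where CPM is the read count scaled to a common library total. All 10 genes passed the filter on low counts, and the lowest count of any of them was 13 read pairs, for Npas2 in Mc1r LKO mouse 141 and for Ciart in Mc1r LKO mouse 182. Mc1r itself had 0 counts in all 8 mice, so the deletion could not be checked in these libraries. Hepatocyte markers summed to between 72512 and 92445 CPM in the controls and between 80346 and 107169 CPM in the Mc1r LKO mice. Mc1r LKO mouse 182 and control mouse 181 stood apart on the first principal component, at 59.3 and 27.8, whereas the other 6 mice lay between -28.2 and -7.03. In whole liver, fewer cells of a type and less RNA per cell cannot be told apart.

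Normalized to exonic length and averaged over the 8 mice, Dbp was the most abundant of the 10 genes at 20.3 ± 12.6 CPM per kb (SD, n = 8). Nfil3 and Tef followed at 10.6 ± 4.12 and 10.6 ± 2.91 CPM per kb (SD, n = 8), and neither they nor Dbp differed from the next gene by more than the spread between mice, except that Tef exceeded Per2. Per2 and Per1 were at 4.91 ± 1.43 and 4.48 ± 1.63 CPM per kb (SD, n = 8), and Per1 exceeded Cry1 beyond the spread. Cry1, Ciart, Arntl, Per3 and Npas2 ranged from 2.73 down to 0.820 CPM per kb, and none of these neighbors differed beyond the spread.

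The mice differed widely in Dbp and Arntl within both genotypes. Dbp (chr7:45705088-45710203 in GRCm38, plus strand), an output gene of the clock, had 26.6, 74.7, 43.3 and 111 CPM in control mice 154, 159, 181 and 193. It had 113, 69.1, 35.3 and 13.1 CPM in Mc1r LKO mice 141, 156, 157 and 182. The groups overlapped over nearly the whole range, and the highest mouse exceeded the lowest 8.59-fold. Arntl (chr7:113207465-113314126, plus strand), the activator of the loop, ran in the opposite order, with 16.1, 9.48, 14.9 and 4.93 CPM in the controls and 3.8, 10.7, 11 and 20.7 CPM in the Mc1r LKO mice. The mouse with the most Arntl, Mc1r LKO 182, had the least Dbp, and the mouse with the least Arntl, Mc1r LKO 141, had the most Dbp.

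The ratio of Dbp to Arntl in a mouse was used to order the mice, since both values come from the same library and depth cancels. From lowest to highest it was 0.635 in Mc1r LKO 182, 1.66 in control 154, 2.92 in control 181, 3.22 in Mc1r LKO 157, 6.48 in Mc1r LKO 156, 7.88 in control 159, 22.5 in control 193 and 29.7 in Mc1r LKO 141. The span was 46.7-fold, with Mc1r LKO mice at both ends and the controls in between. On the log2 scale the ratio was 2.42 ± 1.65 in the controls and 2.14 ± 2.28 in the Mc1r LKO mice (SD, n = 4 each). The difference between the groups, -0.28, was smaller than the spread within either group. Leaving out 1 mouse moved it between -1.19 and 0.65. The ratio orders the mice but does not give an hour of the day, and a shift of the clock and a different time of sampling cannot be told apart with 1 time point per mouse. Whether this order follows the time of day was not tested.

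**Figure D1:**
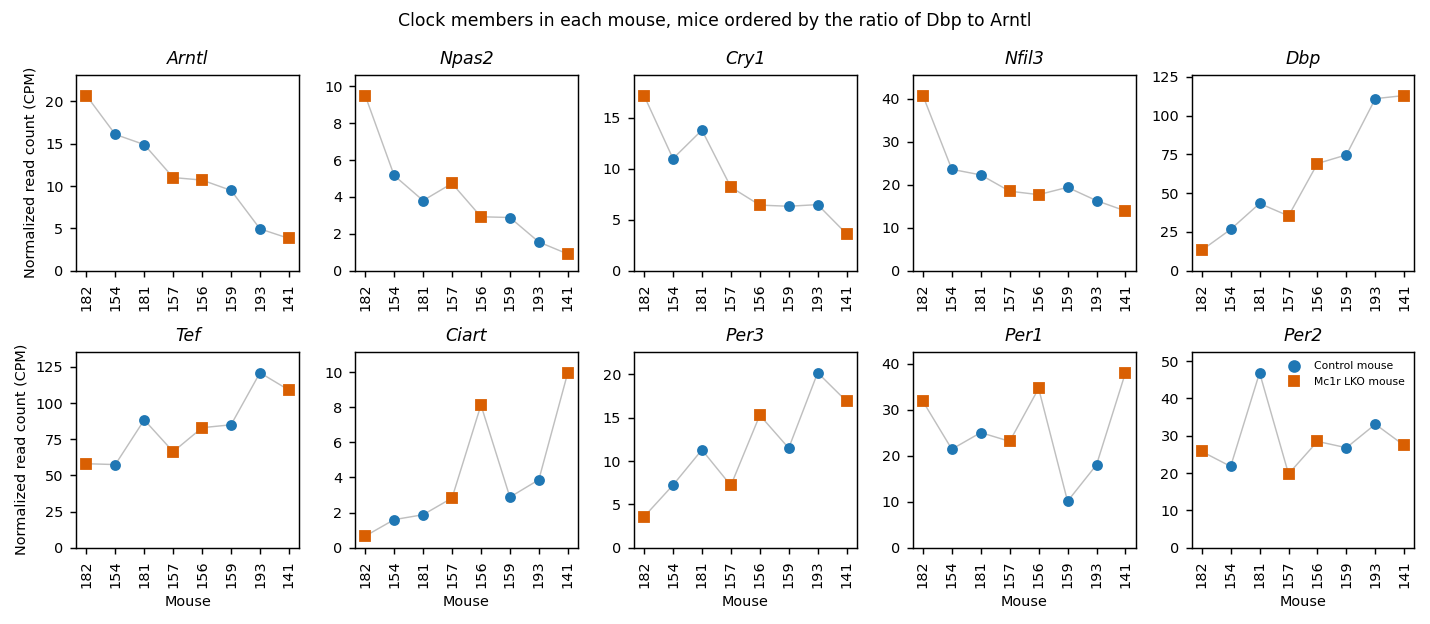
Normalized read count (CPM, y axis from 0) of each of the 10 clock genes in each mouse (x axis), with the mice ordered from the lowest to the highest ratio of Dbp to Arntl. Circles are control mice and squares are Mc1r LKO mice. Arntl, Npas2, Cry1 and Nfil3 broadly go down and Dbp, Tef, Ciart and Per3 broadly go up from mouse 182 to mouse 141, whereas Per1 and Per2 follow no such order.

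Npas2, Cry1 and Nfil3 broadly followed the same order of mice as Arntl. Npas2, the relative of CLOCK, had 5.16, 2.88, 3.8 and 1.55 CPM in the controls and 0.899, 2.92, 4.73 and 9.50 CPM in the Mc1r LKO mice, a 10.6-fold range that ended at the same mice as Arntl. Cry1, a repressor of the loop with a late phase, ranged from 3.60 CPM in Mc1r LKO 141 to 17.2 CPM in Mc1r LKO 182. Nfil3, the repressor at the D-box, ranged from 13.9 to 40.8 CPM in the same pair of mice. Each of these genes thus had its extremes within the Mc1r LKO group.

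The genes of the opposite phase mirrored them. Per3, a period gene whose promoter carries the D-boxes shown above, had 7.23, 11.5, 11.3 and 20.2 CPM in the controls and 16.9, 15.3, 7.19 and 3.58 CPM in the Mc1r LKO mice. Tef, which acts beside Dbp at the D-box, had the narrowest range of the 10 genes, 2.10-fold, from 57.5 CPM in control 154 to 121 CPM in control 193. Ciart, a repressor of the ARNTL pair with 3 E-boxes in its promoter, had the widest range, 15-fold. It was at 1.6, 2.88, 1.88 and 3.87 CPM in the controls and at 9.96, 8.12, 2.83 and 0.664 CPM in the Mc1r LKO mice, so that the Mc1r LKO mice held both the highest and the lowest values.

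Correlations of log2 CPM over the 8 mice were computed for all 45 pairs of the 10 genes, with exact permutation tests and Benjamini-Hochberg adjustment over the 45 pairs. Among the 8 genes other than Per1 and Per2, 26 of 28 pairs had an adjusted p under 0.05, with Pearson's r between 0.68 and 0.97 in absolute size. The exceptions were Cry1 with Tef (r = -0.68) and Ciart with Tef (r = 0.69). Dbp and Arntl had r = -0.90 (exact permutation p = 0.00216, adjusted 0.00837) and Spearman's rho = -0.98 (exact permutation p = 0.000397), and r was again -0.90 without the 2 mice farthest from the median of Arntl. Dbp and Npas2 were in exactly opposite order in the 8 mice (rho = -1, r = -0.95), with an exact permutation p for rho of 4.96e-05, the smallest that 40320 pairings of 8 mice can give in a two-sided test. Dbp and Per3 had r = 0.97 and rho = 0.93 (exact permutation p = 0.000298 and 0.00223), and r = 0.91 without the 2 mice farthest from the median of Per3.

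The relation did not rest on the difference between genotypes. With the genotype means subtracted and the mice permuted within genotype, 27 of the 28 pairs passed. For each pair, the 2 mice farthest from the median of 1 gene were also left out, namely the gene that comes first in the opening list. All 28 pairs then had the same sign, with r between 0.40 and 0.97 in absolute size. Mice that were extreme for the other gene alone stayed in. The number of pairs past the threshold did depend on Mc1r LKO mouse 182, without which 14 of the 45 pairs passed, compared with 26 in all 8 mice. The ratio of Dbp to Arntl had r = -0.71 with the first principal component (exact permutation p = 0.0491, adjusted over 3 measures 0.147, rho = -0.76), and r = -0.47 without Mc1r LKO 182 and 141. With the total count r was -0.35 (exact permutation p = 0.391) and with the summed macrophage markers 0.48 (exact permutation p = 0.227). The part of the first principal component in the order of the mice was not tested.

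**Figure D2:**
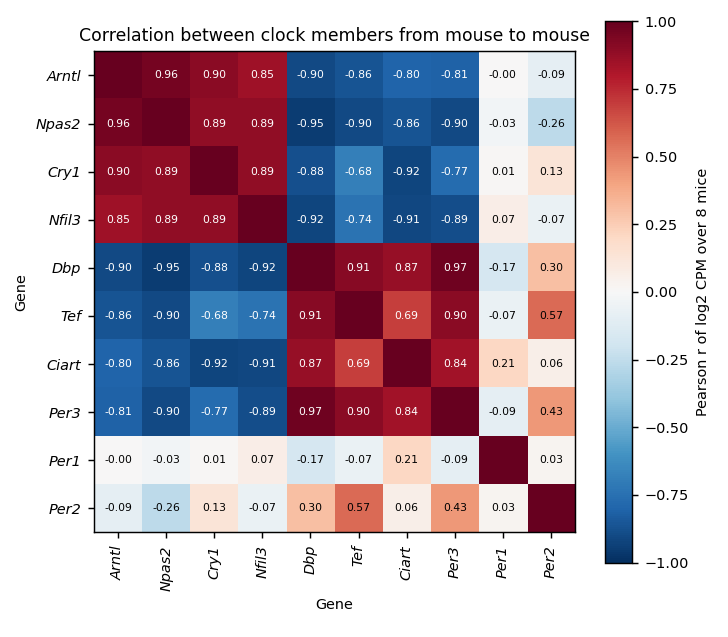
Pearson's r (color and printed value) of log2 CPM over the 8 mice for each pair of the 10 clock genes, with the genes on both axes. The 4 genes that go with Arntl and the 4 that go with Dbp form blocks of positive r with negative r between them, and the rows of Per1 and Per2 hold r of at most 0.57 in absolute size.

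Over all 8 mice, Per1, and less firmly Per2, did not show this pattern. None of the 17 pairs that include Per1 or Per2 passed, and the absolute r was at most 0.57. For the 9 pairs with Per1 it lay between 0.00 and 0.21, with adjusted p of 0.85 or more in these exact permutation tests. Over the 8 mice Per1 and Per2 were not correlated with each other either (r = 0.03, exact permutation p = 0.938, and rho = 0.14). With the genotype means subtracted, r of this pair was 0.53 (p = 0.332 by permutation within genotype). Without the 2 mice farthest from the median of Per1, control 159 and Mc1r LKO 141, r of Per1 with Per2 was -0.01. In those 6 mice r of Per1 was 0.57 with Arntl, 0.49 with Npas2, 0.44 with Nfil3 and 0.26 with Cry1. It was -0.39 with Dbp, -0.38 with Tef, -0.34 with Per3 and -0.00 with Ciart. Apart from Ciart, these had the signs of the genes that go with Arntl. The unadjusted exact permutation p of these pairs lay between 0.243 and 0.999. For Per2 the picture also depended on the mice. Over all 8 mice rho of Per2 with Tef was 0.76 (exact permutation p = 0.0368, adjusted 0.0662), and r was 0.57. Without the 2 mice farthest from the median of Per2, control 181 and Mc1r LKO 157, r of Per2 was 0.83 with Tef (exact permutation p = 0.0181, unadjusted), 0.66 with Per3, 0.66 with Dbp, 0.48 with Ciart, -0.65 with Arntl, -0.57 with Npas2, -0.47 with Nfil3 and -0.46 with Cry1. In those 6 mice Per2 thus had the signs of Dbp with all 8 genes, and the other 7 exact permutation p lay between 0.158 and 0.357. With 8 mice, a small r does not exclude a weaker relation.

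To read the same order over all genes, the log2 ratio of Dbp to Arntl was entered beside genotype in the edgeR fit. Its slopes draw on the same mice and values as the correlations above, so they are not a separate test of them. Dbp and Arntl define the ratio, so only the 8 other genes were read. Of these, 6 had an unadjusted p under 0.05 for the slope, where 13.1% of the 13400 genes tested did. For each doubling of the ratio, Npas2 changed by -0.54 on the log2 scale (SE 0.06, adjusted p = 0.0197) and was the single one of the 8 past the adjusted p, which 0.0597% of all genes passed. Per3 had a slope of 0.40 (SE 0.06, adjusted p = 0.0707) and Cry1 one of -0.36 (SE 0.05, adjusted p = 0.0621). The slopes of Nfil3 (-0.24), Tef (0.19) and Ciart (0.57) had adjusted p between 0.0861 and 0.153.

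By contrast, Per1 had a slope of -0.01 (SE 0.07) with an unadjusted p of 0.929 and Per2 one of 0.03 (SE 0.06) with an unadjusted p of 0.678. The 6 genes passed the unadjusted p in each of the 8 fits that left out 1 mouse, and Per1 and Per2 in none of them. The adjusted calls were less firm. Npas2 passed in 4 of the 8 fits and had adjusted p up to 0.367, being lost without control 193, Mc1r LKO 141, Mc1r LKO 156 or Mc1r LKO 182. The number of genes past the adjusted p was 8 in all mice, 47 without control 154, 1 without control 193 or Mc1r LKO 141, 4 without Mc1r LKO 156 and 3 without Mc1r LKO 182.

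Among the 10 genes, Per1 was the one with an unadjusted p under 0.05 between the genotypes, and it was higher in Mc1r LKO mice. Per1 (chr11:69095217-69109960, plus strand), a period gene that represses the ARNTL pair, had 21.4, 10.1, 25 and 18 CPM in control mice 154, 159, 181 and 193. It had 38.0, 34.6, 23.1 and 31.8 CPM in Mc1r LKO mice 141, 156, 157 and 182. The groups overlapped through 1 pair of mice, as Mc1r LKO 157 lay below control 181. The mean was 18.6 ± 6.34 CPM in the controls and 31.9 ± 6.38 CPM in the Mc1r LKO mice (SD, n = 4 each), and the log2 fold change was 0.76 (SE 0.24) with an unadjusted p of 0.0105 in edgeR's quasi-likelihood test. The adjusted p was 0.734, so Per1 did not pass the correction over all genes.

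With the log2 ratio of Dbp to Arntl in the model, the log2 fold change of Per1 was again 0.76 (SE 0.25), with an unadjusted p of 0.0134 and an adjusted p of 0.6 in edgeR's quasi-likelihood test. Mc1r LKO mice at the opposite ends of the order by the ratio, 182 and 141, both had more Per1 than every control. The ratio entered the model as a linear term, so a dependence of Per1 on sampling time that is not linear in the ratio would not be removed. The part of sampling time in the Per1 difference was not tested. Leaving out 1 mouse gave between 0.57 and 0.93 in the fit with the ratio, where the unadjusted p rose to 0.0652 without Mc1r LKO 141, and between 0.58 and 0.93 in the fit without it, where it stayed between 0.00393 and 0.0314. The adjusted p ranged from 0.234 to 0.985 over all alternatives.

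**Figure D3:**
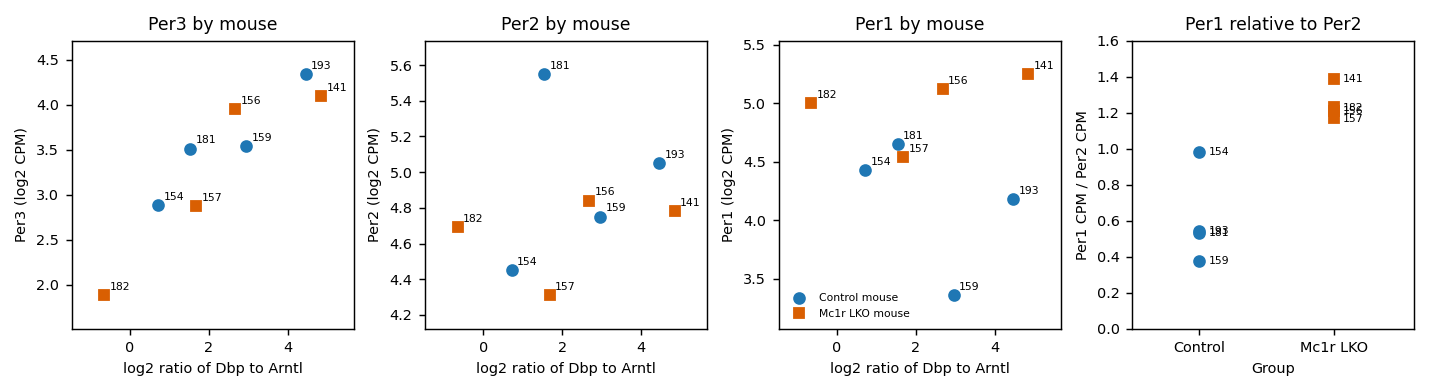
The left 3 panels plot log2 CPM of Per3, Per2 and Per1 (y axis) against the log2 ratio of Dbp to Arntl (x axis) in each of the 8 mice, labelled by mouse number, and the right panel plots Per1 CPM divided by Per2 CPM (y axis from 0) by group. Per3 climbs with the ratio in both groups, Per1 does not, and the Per1 to Per2 value is at most 0.983 in the controls and at least 1.17 in the Mc1r LKO mice.

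The period genes differed among themselves. Per2 (chr1:91415982-91459324, minus strand), which acts with PER1 in the repressor complex, had 21.8, 26.8, 46.9 and 33.1 CPM in the controls and 27.4, 28.5, 19.8 and 25.8 CPM in the Mc1r LKO mice. Per2 had a log2 fold change of -0.35 (SE 0.22), with an unadjusted p of 0.139 and an adjusted p of 0.833 in edgeR, opposite in sign to that of Per1. Without control 154 it was -0.49 with an unadjusted p of 0.0325, and without control 181, the mouse with the most Per2, it was -0.11 with an unadjusted p of 0.545. The ratio of Per1 to Per2 in CPM was 0.983, 0.378, 0.532 and 0.544 in the controls and 1.39, 1.21, 1.17 and 1.23 in the Mc1r LKO mice. The groups did not overlap in this ratio, which was formed after its values had been seen and is given without a test. They did overlap in the ratio of Per1 to Per3, from 0.879 to 2.96 in the controls and from 2.24 to 8.89 in the Mc1r LKO mice. The share of all gene pairs whose ratio separates the groups was not computed. Per3 had a log2 fold change of -0.25 (SE 0.45) and its groups overlapped.

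None of the 10 genes passed an adjusted p under 0.05 between the genotypes in edgeR, where 0 of 13400 genes did (0%), 901 genes (6.72%) had an unadjusted p under 0.05, DESeq2 called 17 genes and limma-voom 0. With an unadjusted p under 0.05 and a log2 fold change of at least 0.25 in absolute size, 1 of the 10 passed, Per1, against a background of 5.31%. The control and Mc1r LKO mice overlapped for all 10 genes, where they did not overlap for 4.16% of all genes. Of the 10 log2 fold changes 5 were above 0, and their median was -0.02, compared with -0.01 over all genes tested. The count therefore lay near the background.

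The standard errors were largest for the genes that varied most from mouse to mouse. They were 0.43 to 0.65 for Dbp, Arntl, Npas2, Cry1, Per3 and Ciart and 0.22 to 0.30 for Per1, Per2, Tef and Nfil3. Arntl differed by 0.03 (SE 0.46), Dbp by -0.16 (SE 0.59), Npas2 by 0.45 (SE 0.58), Cry1 by -0.08 (SE 0.43), Nfil3 by 0.16 (SE 0.30) and Tef by -0.15 (SE 0.24) on the log2 scale. Differences of this size lay within 1 standard error of 0, and Arntl, Npas2, Dbp and Nfil3 changed sign without Mc1r LKO mouse 182. With the ratio in the model the standard error of Npas2 was 0.21 and its difference 0.03, and that of Per3 was 0.20 with a difference of -0.24. Cry1 moved to -0.36 (SE 0.19) with the ratio in the model, with an unadjusted p of 0.0868, to -0.62 without Mc1r LKO 182, and to -0.75 without control 159 and Mc1r LKO 182, with an unadjusted p of 0.0512.

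Ciart had the largest log2 fold change of the 10, 1.05 (SE 0.65), with an unadjusted p of 0.136 and an adjusted p of 0.83 in edgeR. The value depended on single mice and on the test. Without Mc1r LKO 182, which had 13 read pairs of Ciart, it was 1.43 with an unadjusted p of 0.0077, and without Mc1r LKO 141, the highest mouse, it was 0.58 with an unadjusted p of 0.404. It was 0.36 in limma-voom, with an unadjusted p of 0.652. With the first principal component as a covariate, computed after the genotype means were subtracted, it was 0.66. With the ratio in the model it was 0.88 (SE 0.35) with an unadjusted p of 0.0314 and an adjusted p of 0.638. Among mice that neighbored each other in the ratio of Dbp to Arntl, Mc1r LKO 156 and control 159 had 8.12 and 2.88 CPM. Mc1r LKO 141 and control 193 had 9.96 and 3.87 CPM. Mc1r LKO 157 and control 181, which also neighbored each other in the order, had 2.83 and 1.88 CPM. At the lowest end the direction was opposite, with 0.664 CPM in Mc1r LKO 182 and 1.6 CPM in control 154.

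**Figure D4:**
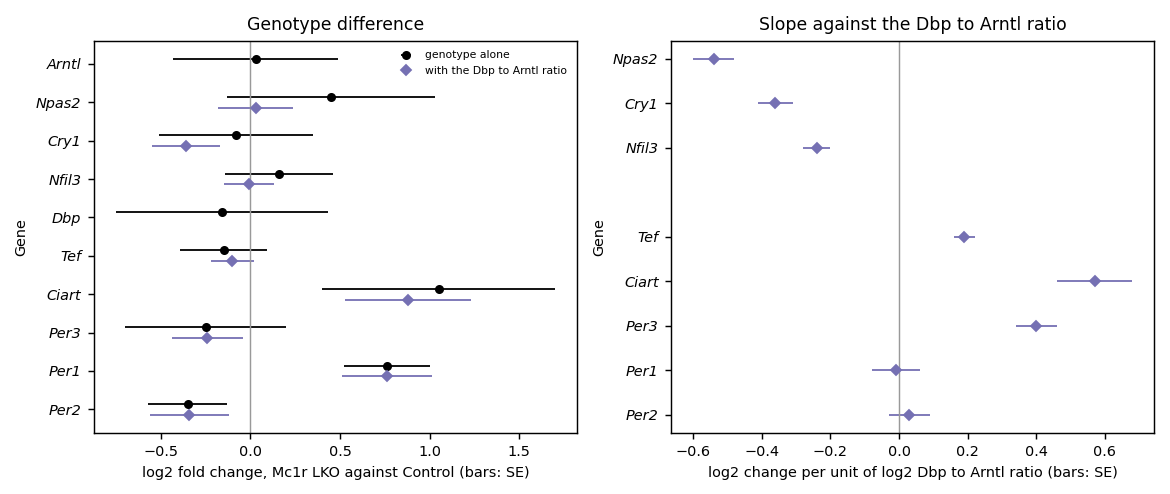
Left, log2 fold change of Mc1r LKO against control for the 10 clock genes (x axis, bars are standard errors), from the fit with genotype alone (circles) and with the log2 ratio of Dbp to Arntl (diamonds, not shown for Dbp and Arntl). Right, slope in log2 units per doubling of the ratio with its standard error. Per1 keeps a log2 fold change of 0.76 in both fits and a slope of -0.01, whereas the slopes of Npas2, Cry1 and Nfil3 lie below 0 and those of Tef, Ciart and Per3 above 0.

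Of 12 other core clock genes, 11 were tested. An unadjusted p under 0.05 was reached by 6.72% of all genes and by 1 of the 11, lower in Mc1r LKO mice. This was Cry2, the second cryptochrome repressor, at 27.8 ± 2.19 CPM in the controls and 23.3 ± 3.04 CPM in the Mc1r LKO mice (SD, n = 4 each), with a log2 fold change of -0.26 (SE 0.11). Its unadjusted p was 0.0432 and its adjusted p 0.735 in edgeR. The median log2 fold change of the 11 was -0.14. Nr1d2, one of the repressors of Arntl, had 70.9, 69.6, 79.5 and 72.4 CPM in the controls and 69.3, 65.9, 61.2 and 63.3 CPM in the Mc1r LKO mice. Its groups did not overlap, and Nr1d2 had a log2 fold change of -0.17 with an unadjusted p of 0.059. Nr1d1, its close relative, was at -0.19 (SE 0.11).

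Clock, Bhlhe40, Bhlhe41 and Hlf differed between the genotypes by 0.06, 0.05, -0.31 and 0.08 on the log2 scale, with unadjusted p between 0.553 and 0.766. Against the ratio of Dbp to Arntl, 5 of the 11 had an unadjusted p under 0.05, with 3 rising and 2 falling, against 13.1% of all genes, and 4 of them also passed without Mc1r LKO 182. Clock, the partner of ARNTL, fell with the ratio (slope -0.14) as Arntl did, and Bhlhe41, a repressor at the E-box, rose (slope 0.56). The slopes of Nr1d1 (0.07) and Hlf (0.08), a relative of Dbp and Tef, were small, and that of Nr1d2 (0.01) did not pass. From the lowest to the highest mouse, Nr1d1, Nr1d2 and Hlf ranged 1.45-, 1.3- and 1.43-fold, against 1.75-fold for Clock and 23-fold for Bhlhe41. Bhlhe41 was lowest, at 0.204 CPM, in Mc1r LKO 182, the mouse with the lowest ratio. That value is near the floor, as 3 counts corresponded to 0.14 CPM in this mouse. No gene of this list passed the adjusted p for genotype or slope.

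Of 19 kinases, ubiquitin ligases and other modifiers of clock proteins, 0 passed the unadjusted p between the genotypes, where 6.72% of all genes did. Their median was -0.02. The median of 16 genes known to follow the liver clock was 0.33. Of these, 2 had an unadjusted p under 0.05, both higher in Mc1r LKO mice, where 3.86% of all genes were higher at that p. One was Lpin1, a phosphatidate phosphatase of triglyceride synthesis, with a log2 fold change of 0.89 (SE 0.25) and an unadjusted p of 0.00573. The other was Noct, a rhythmic phosphatase, with a log2 fold change of 0.78 (SE 0.31) and an unadjusted p of 0.0307. The adjusted p of both was 0.734 in edgeR. Like Per1, neither Lpin1 (slope -0.02) nor Noct (slope 0.07) passed the test against the ratio of Dbp to Arntl, with unadjusted p of 0.791 and 0.414. By comparison, 10 of the 16 genes passed at the unadjusted p, 6 rising and 4 falling, against 13.1% of all genes. Without Mc1r LKO 182 again 10 passed, where 6.93% of all genes did.

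Because Per1 responds to systemic cues as well as to the loop, lists for these cues were read beside it. Of 10 glucocorticoid-induced genes, 7 had an unadjusted p under 0.05, all higher in Mc1r LKO mice, where 3.86% of all genes were higher at that p. All 10 log2 fold changes were above 0, with a median of 0.85. Fkbp5, a co-chaperone of the glucocorticoid receptor, had 20.7, 22.5, 16.1 and 22.9 CPM in the controls and 51.0, 42.5, 37.4 and 44.6 CPM in the Mc1r LKO mice. The groups did not overlap, and Fkbp5 had a log2 fold change of 1.09 (SE 0.13, adjusted p = 0.118 in edgeR). The log2 fold changes of Cebpd, a transcription factor, and Tsc22d3, which encodes GILZ, were 0.82 (SE 0.13) and 0.93 (SE 0.27), with adjusted p of 0.490 and 0.734. This list was written with earlier results of these data known, so it is not independent evidence of its direction. Its part in the Per1 difference was not tested.

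Of 8 cAMP and immediate early genes and 8 body temperature genes, 0 passed the unadjusted p between the genotypes, with medians of 0.24 and 0.28. The log2 fold changes were above 0 for 8 of the 8 cAMP and immediate early genes and 6 of the 8 body temperature genes, compared with 6412 of the 13400 genes tested. Each of those 6 body temperature genes was highest in Mc1r LKO mouse 182. Junb and Egr1, immediate early genes, had 87.7 and 41.3 CPM in that mouse, against at most 34.4 and 20.9 CPM in the controls. Fos and Ppargc1a were highest in other mice. The counts without Mc1r LKO 182 were not computed. Of 10 fasting and feeding genes, 1 was higher in Mc1r LKO mice at the unadjusted p, where 3.86% of all genes were. This was Angptl4, an inhibitor of lipoprotein lipase (log2 fold change 0.67, SE 0.13, adjusted p = 0.734 in edgeR). The median of the 10 genes was 0.11, with 5 of 10 above 0. Macrophage markers were lower in Mc1r LKO mice for 6 of 6 genes by value, none of them at an unadjusted p under 0.05, and summed to between 226 and 514 CPM in the controls and between 158 and 332 CPM in the Mc1r LKO mice. Endothelial, stellate, cholangiocyte and lymphocyte markers overlapped between the groups, at up to 169, 360, 16.5 and 3.81 CPM, and Ms4a1, a B cell marker, was at 0 in a mouse. The part of these cells in the Per1 difference was not tested.

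Finally, the genes most like Per1 and Dbp over the 8 mice were listed by Pearson's r of log2 CPM, as a description. For Per1 they were Nrd1 (r = 0.985), Ebna1bp2 (r = 0.973), Hax1 (r = 0.967), Ccn2 (r = 0.962) and 2510039O18Rik (r = 0.959), none of which is in the clock lists. Ccn2, a secreted matricellular protein, had 12.0, 5.39, 10.5 and 7.18 CPM in the controls and 16.8, 14.6, 10.6 and 14.9 CPM in the Mc1r LKO mice, with its lowest value in control 159, as had Per1. For Dbp they were Ndufa4l2 (r = 0.984), Pcsk4 (r = 0.967), Slc26a6 (r = 0.964), Ccdc82 (r = 0.959) and Anxa3 (r = 0.958). Pcsk4, a proprotein convertase, ranged from 6.54 CPM in Mc1r LKO 182 to 20.9 CPM in Mc1r LKO 141, the same mice that bounded Dbp. All values of a mouse come from 1 library and share its depth and scaling.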

How the data were processed

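Liver RNA was sequenced from 4 control and 4 Mc1r LKO mice, grouped by the sample labels. The authors trimmed reads with Trim Galore 0.6.6, aligned them with STAR 2.7.6a and counted read pairs by strand with featureCounts (Subread 2.0.1) on an Ensembl annotation that the file headers name as GRCm38, and the deposited values are raw whole-number counts per gene. Symbols matched 55141 of 55487 identifiers.

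The deposited counts were analysed with edgeR 4.0.16 in R 4.3.3. Low genes were removed by filterByExpr (minimum count 10, minimum total 15), library sizes were scaled by TMM, and the quasi-likelihood test (glmQLFTest) was run on the 13400 remaining genes, whose p-values were adjusted by the Benjamini-Hochberg method. CPM are TMM-normalized, and log2 CPM have a prior count of 2. The study's threshold on the log2 fold change, 0.25, was kept. Correlations were tested by exact two-sided permutation (scipy 1.17.1). The fits were tested on simulated data. Alternatives were RLE, upper quartile or no scaling, other filters, DESeq2 1.42.0, limma-voom 3.58.1, the first principal component as a covariate, and fewer mice. That covariate was computed after the genotype means were subtracted, and it is not the component whose scores are given above. It is uncorrelated with genotype by construction, so it cannot stand for a difference between the genotypes. The fit with the ratio of Dbp to Arntl, and its alternatives, were added after the data had been seen.

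The members and gene lists were chosen with earlier results of these data known. Named genes were the 10 members, a fixed set of other core clock genes, at most 3 genes per other list at an unadjusted p under 0.05, Fkbp5, and the 5 genes most like Per1 and the 5 most like Dbp, and some of the genes this rule named are not reported here. Mice were kept with littermates of the same sex, and which of these mice shared a litter or cage, within or across the genotypes, is not given in the sources used here, so p-values measure the spread between these mice. Per3 and Npas2 overlap the span of another gene of the same strand, and none of the 10 shares exonic bases with one.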

Additional observations from a re-analysis of the deposited data

How the results depend on the processing

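The count of 0 clock genes at an adjusted p held under every alternative run without the ratio of Dbp to Arntl. So did the Per1 difference (0.57 to 0.93, unadjusted p up to 0.0314). With the ratio in the edgeR model and 1 mouse left out, the Per1 difference was between 0.57 and 0.93. Its unadjusted p was under 0.05 in 7 of those 8 fits and reached 0.0652. Leaving out control 181 with Mc1r LKO 182, or control 159 with Mc1r LKO 182, gave 2 genes at the unadjusted p, Per1 and Ciart, and leaving out 1 mouse gave between 1 and 2. For genes within their standard error the sign turned. Arntl was -0.03 with library size alone, -0.04 with the first principal component as a covariate, and -0.23 and -0.47 without those pairs of mice. Without the same pairs Npas2 was -0.11 and -0.24, Dbp 0.03 and 0.26, and Nfil3 -0.23 and -0.30, and Per3 was 0.01 without 159 and 182. With the ratio of Dbp to Arntl, Nfil3 was -0.01. Leaving out 1 mouse gave ranges of -0.49 to -0.11 for Per2, 0.58 to 1.43 for Ciart, -0.55 to 0.10 for Per3, -0.40 to 0.33 for Arntl, -0.19 to 0.79 for Npas2, -0.62 to 0.18 for Cry1, -0.71 to 0.27 for Dbp, -0.28 to 0.34 for Nfil3 and -0.34 to 0.05 for Tef. It gave between 14 and 26 correlated pairs, and between 1 and 47 genes with an adjusted slope against the ratio, which numbered 21 without control 181 and Mc1r LKO 182. The causes were not tested. No paired analysis was possible because the mouse numbers are not shared between the groups. Depth limits Npas2 and Ciart, with 13 read pairs in single mice.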

Other observations

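Genes outside the core loop also went with the ratio of Dbp to Arntl, beside genotype in edgeR, and those named here were chosen after their values had been seen. At an adjusted p under 0.05 there were 8 genes. Besides Dbp, Arntl and Npas2 they included Chka, a choline kinase (slope -0.52 per doubling of the ratio), Egr1, an immediate early transcription factor (-0.36), Slc30a10, a manganese exporter (-0.24), and Pcsk4 (0.28). Egr1 had 20.3, 16.8, 20.9 and 8.85 CPM in the controls and 9.54, 17.1, 17.1 and 41.3 CPM in the Mc1r LKO mice, with its highest value in the mouse with the lowest ratio. Usp2, a rhythmic deubiquitinase, had a slope of 0.69 (adjusted p = 0.0546) and ranged from 1.07 CPM in Mc1r LKO 182 to 22.9 CPM in Mc1r LKO 141.

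Of 8 body temperature genes, 5 had an unadjusted p under 0.05 for the slope, all falling, among them Hspa8 (slope -0.16), Hsp90aa1 (-0.18) and Dnajb1 (-0.35), which are heat shock chaperones. All 3 were highest in Mc1r LKO 182, the mouse with the lowest ratio and the highest first principal component. Dnajb1 reached 181 CPM there, whereas the remaining mice had 21.5 to 47.3 CPM. Hspa8 reached 1387 CPM, against 610 to 967 CPM elsewhere. Without that mouse 0 of the 8 genes passed. Of 8 cAMP and immediate early genes 3 fell, of 10 glucocorticoid-induced genes 1 rose and 1 fell, and of 19 modifiers of clock proteins 1 rose and 3 fell, where 13.1% of all genes passed. Without Mc1r LKO 182, where 6.93% of all genes passed, 1 cAMP and immediate early gene (Egr1), 2 glucocorticoid-induced genes, 2 modifiers and 4 fasting and feeding genes did, compared with 1 of 10 fasting and feeding genes in all mice. Among genes that follow the liver clock, Nampt (0.14), Wee1 (0.28), Por (0.15) and Upp2 (0.31) rose and Elovl3 (-0.31), Insig2 (-0.15) and Cdkn1a (-0.32) fell at the unadjusted p.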
